A study of Mus musculus with 7 samples.

Results

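The comparison described here sets RNA of a feeder cell layer grown from mouse fetal liver against RNA of mouse fetal liver endothelial progenitors that carry no sorting label. It takes 2 of the 7 arrays of the study, 1 on each side, chosen by their titles: the array titled as feeder layer and the progenitor array whose title names no Sca1 fraction, called unsorted here. The other 5 arrays hold progenitors sorted as Sca1+ (2 arrays) or Sca1- (3 arrays), by a cell surface protein found on many stem cells, and they serve below only as a range. All 7 samples are total RNA with fetal liver as their source, and the labels used here give no strain, age, treatment or number of animals or cultures behind either array. The values of both arrays are signals, 1 per probe set on a linear scale, and 22690 probe sets with the same names were read on each.

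The 2 arrays come from tables deposited separately under different array platforms, and neither has a replicate. Cells and platform therefore cannot be told apart, the spread between repeat samples is unknown, and no test was made for any difference below. Both arrays were brought to the same 2% trimmed mean of 500. Signals under 64 were set to 64 before differences on the log2 scale were taken, feeder minus unsorted, and a gene was kept for counts where its signal exceeded 100 on at least 1 of the 2 arrays. Because each array measured the RNA of many cells together, fewer cells of a type and less RNA per cell cannot be told apart.

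A feeder layer is a bed of supporting cells on which other cells are grown, and in fetal liver the supporting stroma includes stellate cells, the desmin-containing pericytes that lie beside the sinusoidal endothelium, and fibroblasts. Such cells lay down collagen and basement membrane, contract through smooth muscle actin and its partners, and release growth factors and chemokines that act on endothelial and blood cells. Fetal liver is also a blood-forming organ, so macrophages and developing granulocytes are found among its cells.

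Over 12393 genes, 9813 passed the signal minimum. Of these, 388 were higher on the feeder array by 2-fold or more (3.95%), 1551 were lower by as much (15.8%) and 7874 lay within 2-fold, with a median log2 difference of -0.14. At 4-fold the counts were 38 higher and 150 lower. Other scalings changed this split, to 662 higher and 868 lower after quantile normalization, 930 and 962 after scaling to the median, 787 and 391 after a lowess fit on signal, and 221 and 2265 after scaling to the added control transcripts. Scaling to the median moved the median of all genes to 0.25, and scaling to the control transcripts moved it to -0.39. List medians are therefore to be read against the median of all genes.

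The excess of lower genes lay among dim signals. All 27 probe sets for bacterial transcripts taken here as background controls, which read background only if no such transcripts had been added, read higher on the unsorted array, with medians of 29.0 against 4.60 and highest values of 170 against 60.8. In 8 bins of mean signal, the median difference was -0.92 in the dimmest bin, where 43.4% of genes were at least 2-fold lower, and 0.14 in the brightest, where 0.652% were. Of the 1551 lower genes, 696 had a feeder signal under 64 and 360 had an unsorted signal no higher than that array's highest background control. Among the 5373 genes with both signals above 300, 114 were higher by 2-fold or more (2.12%) and 72 lower (1.34%), and the median was 0.04. For this reason a gene whose lower signal lay under that array's background level is given here as "at least" a fold, counted from that level, which is 170 on the unsorted array and the floor of 64 on the feeder array. Counted in this way over all 9813 genes, 208 were higher by 2-fold or more (2.12%) and 1191 lower (12.1%).

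**Figure D1:**
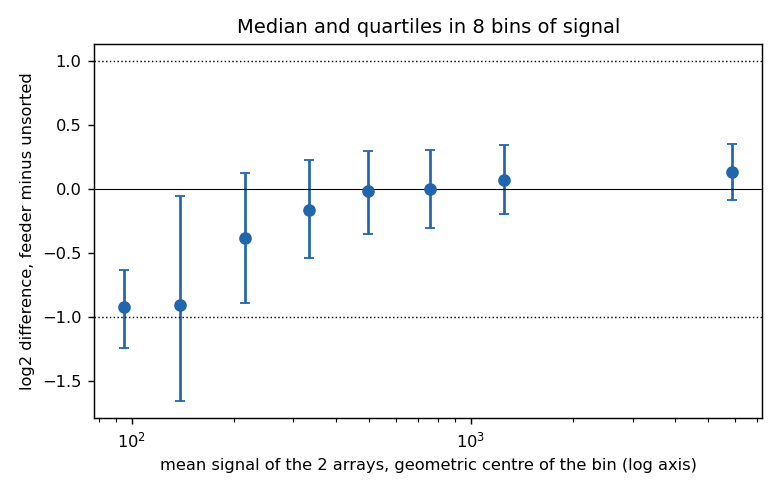
Median log2 difference (feeder minus unsorted, points) with the quartiles (bars) of genes in 8 bins of mean signal, plotted at the geometric centre of each bin on a log axis; dotted lines mark 2-fold. The median is -0.92 in the dimmest bin and 0.14 in the brightest.

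Probe sets of the same gene gave a repeat reading within an array, although they share its RNA and are no replicates of a condition. Of 3594 genes with several measured probe sets, 1886 (52.5%) had all of them on the same side of 0. The SD of the difference between probe sets of a gene was 0.61, and it was 0.35 for the 1624 genes with both signals above 300. Of the 115 genes at least 2-fold higher that had several probe sets, 67 had all in that direction, as had 208 of 253 at least 2-fold lower. RNA quality as read by control probe sets was alike, with a ratio of 3' to 5' probe sets of Actb of 1.03 on the feeder and 1.01 on the unsorted array, against 1.87 to 13.5 on the sorted arrays.

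Of the 4 genes given as markers of this comparison, Des, Cnn1 and Cxcl1 were higher and Ltf was lower on the feeder array. Among genes with a signal above 500 on either array, the 12 highest differences were those of Des, Fxr2, Tnf, Cxcl1, Tm4sf1, Prss23, Cnn1, Ccn2, Timp3, Arhgap23, Foxc2 and Cxcl2, and 11 of the 12 lowest were genes of the granulocyte list. Stretches before the start sites of 5 genes higher on the feeder array are shown first, so that the letters around 2 short motifs can be read beside the signals. They come from RefSeq on build GRCm38.p6, where each promoter window runs from 250 bases before a start site into the first bases of the transcript. Cxcl1 and Cxcl2 encode chemokines that attract neutrophils, and capitals mark the kappaB motif GGG-NN-TTTCC, searched on both strands, which is the kind of site that NF-kappaB proteins bind. The Cxcl1 stretch is chr5:90891116-90891223 on the plus strand and its first match begins 89 bases before the start site; the Cxcl2 stretch is chr5:90903762-90903870 on the plus strand and its first match begins 97 bases before.
Cxcl1: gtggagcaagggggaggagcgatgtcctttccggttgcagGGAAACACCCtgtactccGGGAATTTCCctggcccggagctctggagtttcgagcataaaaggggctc
Cxcl2: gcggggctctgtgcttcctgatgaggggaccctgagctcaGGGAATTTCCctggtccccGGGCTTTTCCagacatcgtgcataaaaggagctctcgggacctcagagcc
Both windows held 2 matches. The motif was found for 447 of 27025 genes in the table (1.65%), for 2 of 4 neutrophil-attracting chemokine genes, 3 of 17 inflammatory genes, 2 of 8 stromal support factor genes and 2 of 15 other chemokine ligand genes. The Tnf window held none, which says only that these letters are not in that window.

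For genes that respond to mechanical tension, capitals mark GGAATG, searched on both strands, the core of the sites bound by TEAD proteins, the DNA-binding partners of the coactivator YAP. The stretches are chr19:36119922-36120094 on the minus strand for Ankrd1, with the first match 210 bases before the start site, chr3:145650043-145650128 on the minus strand for Ccn1 (103 bases before), and chr19:34255474-34255559 on the minus strand for Acta2 (146 bases before).
Ankrd1: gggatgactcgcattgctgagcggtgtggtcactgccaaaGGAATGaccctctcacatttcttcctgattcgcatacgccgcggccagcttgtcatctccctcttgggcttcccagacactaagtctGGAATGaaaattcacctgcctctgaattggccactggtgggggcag
Ccn1: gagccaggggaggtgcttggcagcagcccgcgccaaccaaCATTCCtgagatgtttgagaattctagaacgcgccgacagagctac
Acta2: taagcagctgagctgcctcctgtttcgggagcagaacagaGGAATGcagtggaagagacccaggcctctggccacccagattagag
The motif was found for 7 of 15 genes of the YAP target list and 7 of 20 of the stellate cell, pericyte and smooth muscle list, beside 3880 of 27025 genes in the table (14.4%). Lists with few or no members higher on the feeder array had like shares, with 4 of 11 Notch genes, 6 of 18 genes of haematopoietic stem and progenitor cells, 3 of 9 heme and iron genes and 2 of 4 mesothelial genes. The windows of Des, Cnn1, Timp3 and Tm4sf1 held no match. A match is a description of letters and not a measured site.

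Many contractile genes of stellate cells, pericytes and smooth muscle had higher signals on the feeder array. Of 25 listed genes 24 were measured and 20 passed the signal minimum. Of those, 11 were at least 2-fold higher (55%) and 1 was lower (5%), beside 3.95% and 15.8% of all genes. The median difference was 1.19 beside -0.14 over all genes. Counted from the background level 10 were higher and 1 lower, beside 2.12% and 12.1% of all genes. The median stayed above 0 under each scaling, between 0.95 and 1.55. The feeder signal exceeded all 6 other arrays for 15 of the 20, beside 17.1% of all genes.

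Cnn1, which encodes a calponin of differentiated smooth muscle, had a signal of 1635 on the feeder array and 256 on the unsorted array, and 25.2 to 302 with a median of 157 on the sorted arrays. It was 6.39-fold higher on the feeder array, which stood above all 6 others. Tagln, which encodes the actin-binding protein transgelin, had 9169 against 2486, 3.69-fold, with 174 to 4139 on the sorted arrays. Actg2, the smooth muscle gamma actin gene, had 3700 against 1037, 3.57-fold. Acta2, smooth muscle alpha actin, had signals of 12612 and 6581 and stayed just under 2-fold. For these 4 genes both signals lay above the background level of their array.

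Further members ran in the same direction. Tropomyosin genes Tpm1 (5035 against 2037) and Tpm2 (4070 against 1823) and the myosin light chain gene Myl9 (2859 against 1196) were each over 2-fold higher, although the probe sets of Tpm2 did not all lie on 1 side of 0. Lmod1, which encodes leiomodin, an actin filament nucleator of smooth muscle, had 262 against 31.2, at least 1.54-fold. Pdgfrb, the platelet-derived growth factor receptor of pericytes, was nearly equal (655 against 635). So was the mesenchymal intermediate filament gene Vim (17205 against 13095). Lrat, whose enzyme stores retinol in stellate cells, lay at 17.8 and 80.2, under the background level of the unsorted array. Reln was the member that was lower, at 91.0 against 206.

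Des, which encodes the intermediate filament desmin, had the highest difference on the feeder side among genes named by rule, and its probe sets disagreed. The brighter of its 2 probe sets read 1700 on the feeder array and 79.2 on the unsorted array, with 9.60 to 425 and a median of 233 on the sorted arrays, so the feeder array was highest and the unsorted value lay under the background level. Counted from that level, desmin was at least 9.98-fold higher. The other probe set of Des read in the opposite direction, at 120 on the feeder and 235 on the unsorted array, and the mean of both gave a log2 difference of 1.73. Skeletal and cardiac muscle genes, which share desmin with smooth muscle, were at or near background: of 15 measured, 4 exceeded 100 on either array, 5 exceeded the background level on the feeder array and 0 on the unsorted array, and Actc1, the cardiac actin gene, read 109.6 and 140.4.

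**Figure D2:**
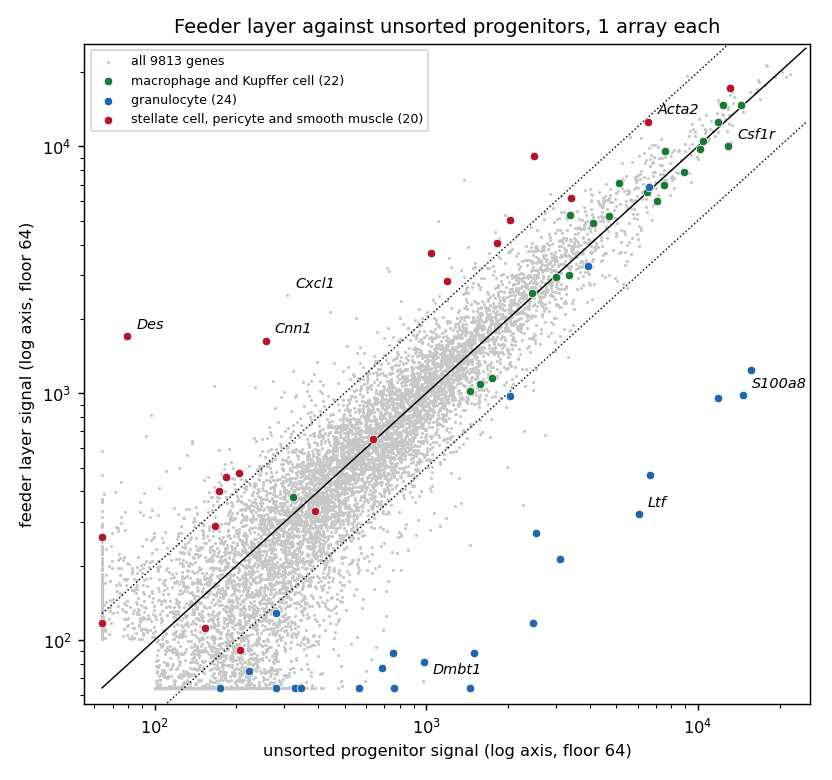
Signal on the feeder array (vertical log axis) against signal on the unsorted array (horizontal log axis) for 9813 genes, with values under 64 drawn at 64; the solid line marks equality and dotted lines 2-fold. Of the stellate and smooth muscle genes 11 of 20 lie above the band (Cnn1 at 1635 against 256), 8 within it and 1 below; all 22 macrophage genes lie within it, and 22 of 24 granulocyte genes lie below it (Ltf at 325 against 6063).

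Collagen and other fibroblast genes were close to equal, although contractile genes were not. Of 29 fibroblast and mesenchymal genes measured, 27 passed the signal minimum. Of those, 3 were at least 2-fold higher and 0 lower, beside 3.95% and 15.8% of all genes, and the median was 0.16. Scaling to the added control transcripts turned this median to -0.16. Col1a1, a chain of fibrillar collagen, had 16207 on the feeder array and 13192 on the unsorted array, and Col3a1, another fibrillar collagen gene, had 12437 and 13060. Dcn, which encodes the collagen-binding proteoglycan decorin, had 3238 and 4087. Collagen signals were thus high on the unsorted array as well. The 3 higher genes were Lox, whose enzyme cross-links collagen (4264 against 1852), the calcium-binding protein gene S100a4 (2203 against 941) and the mesenchymal transcription factor gene Prrx1 (776 against 377, with probe sets that disagreed in direction). Of 13 basement membrane genes above the minimum, 0 were 2-fold different (median 0.15, and -0.09 after scaling to the added control transcripts), and Col4a2 (5058 against 3027) and Sparc (14631 against 8558) had differences of 0.74 and 0.77.

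Some genes that respond to mechanical tension and to YAP were higher on the feeder array. Of 17 members above the minimum, 5 were at least 2-fold higher and 1 was lower, beside 3.95% and 15.8% of all genes. Their median of 0.27 became -0.07 after scaling to the added control transcripts. Among the 9 members with both signals above 300 the median was 1.10. Ccn2, which encodes connective tissue growth factor, had 7342 on the feeder array and 1378 on the unsorted array, 5.33-fold, with 4.40 to 3321 on the sorted arrays. Ccn1, its matricellular relative, had 3126 against 732 on one probe set and 1952 against 414 on the other. Ankrd1, an ankyrin repeat gene of stretched muscle, had 988 against 330 and 1209 against 148 on its 2 probe sets. For both Ccn1 and Ankrd1 the probe sets pointed the same way, and the feeder array exceeded the sorted arrays. Amotl2 (1137 against 522) and Myof (1830 against 856) were the other members over 2-fold. The receptor kinase gene Axl (3948 against 3522), Ajuba (410.5 against 382) and Igfbp3 (381 against 317) were near equal, and Gadd45a (296 against 481) and Lats2 (202 against 374) had the lower signal on the feeder array, within 2-fold. The lower member, Nt5e, had 25.2 against 167, both under the background level of their array. Among 19 actin cytoskeleton and focal adhesion genes the median was 0.40 and 1 member, the scaffold gene Pdlim7 (1545 against 570.2), was over 2-fold higher.

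Single probe sets decided a few other values on the feeder side. Fxr2, an RNA-binding protein gene, had 584 against 61.4 and was at least 3.43-fold higher. On the sorted arrays it ranged from 9.0 to 538, so the feeder array was not apart from them. Itsn1, an endocytic scaffold gene named here after its values were seen, had 952 against 57.2 on one probe set but 538 against 472 and 502 against 288 on others. Lima1, an actin-bundling gene, likewise had 555 against 42.8 on one probe set and 577 against 507 on another. These differences depend on the probe set chosen. Arhgap23 (at least 3.77-fold) and the mesenchymal transcription factor gene Foxc2 (at least 3.70-fold) have 1 measured probe set each. Tm4sf1, which encodes a tetraspanin-like membrane protein, had 674 against 92.6 and 4.80 to 127 on the sorted arrays, and the feeder signal was at least 3.95-fold above the unsorted one.

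**Figure D3:**
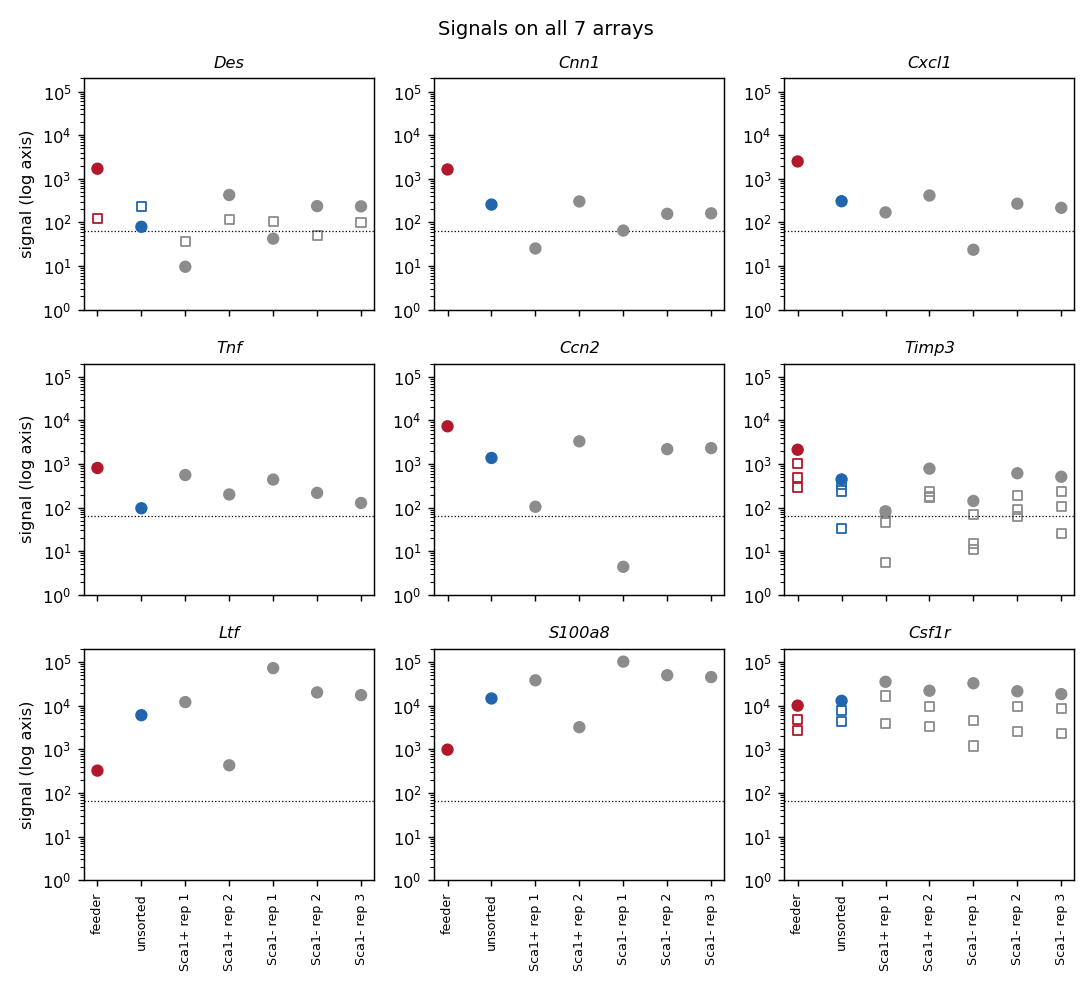
Signals of 9 genes on all 7 arrays on a log axis (feeder in red, unsorted in blue, sorted in grey); filled circles are the probe set used, open squares the gene's other probe sets, and the dotted line is the floor of 64. The feeder array is highest for Cnn1 and Cxcl1 and lowest for Ltf and S100a8, and the 2 probe sets of Des run in opposite directions.

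Cxcl1 and Cxcl2, the neutrophil-attracting chemokine genes shown above, were among the 12 highest differences. Cxcl1 had a signal of 2495 on the feeder array, 306 on the unsorted array and 23.6 to 413, with a median of 216, on the sorted arrays. It was 8.16-fold higher on the feeder than on the unsorted array, and no other array came near the feeder value. Cxcl2 had 4979 against 1100, 4.53-fold, but the sorted arrays ran from 2631 to 6931. For Cxcl2 the feeder array thus lay inside the sorted range and the unsorted array was the lowest of the 7. Of the other members measured, Cxcl5 (44.2 and 74.2), Cxcl15 (14.4 and 48.2) and Ppbp (86.4 and 169) lay under the background level on the unsorted array.

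Of 14 other chemokine ligand genes above the minimum, 5 were at least 2-fold higher (4 counted from the background level) and 1 was lower. The shares of all genes were 3.95% (2.12% counted from the background level) and 15.8%. Ccl2, which encodes the monocyte attractant MCP-1, had 3222 against 716, 4.50-fold, with 166 to 935 on the sorted arrays. Ccl7 had 659.8 against 232, and Ccl12 had 235 against 66.2, at least 1.38-fold. The macrophage inflammatory protein genes Ccl3 (3358 against 1507) and Ccl4 (3908 against 1423) were over 2-fold higher. These 5 genes all encode ligands of receptors on monocytes. Ccl6 (6350 against 7130) and Ccl9 (7566 against 6847), which were bright on both arrays, were close to equal. Cxcl13, a B cell attractant gene, was the lower member (172 against 480.3). The list's median of -0.02 was -0.55 to 0.49 over the scalings.

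Of 9 chemokine receptor genes above the minimum, 0 were 2-fold higher and 2 were lower, beside 3.95% and 15.8% of all genes, with a median of -0.37 that turned to 0.10 with median scaling and 0.03 with the lowess fit. Ccr2, the receptor of Ccl2, had 277 against 719.6, and Cxcr2, the receptor of Cxcl1 and Cxcl2, had 22.6 against 174, at least 2.71-fold lower. Cxcr4, the receptor of Cxcl12, was nearly equal at 2366 and 2628.

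Tnf, which encodes tumour necrosis factor, had 813 on the feeder array and 97.0 on the unsorted array and was at least 4.77-fold higher, with 127.9 to 559.7 on the sorted arrays. The feeder array was the highest of the 7 for Tnf. The unsorted array read lowest, but under its background level, so its place below the sorted arrays is not settled. Of 17 genes of this list above the minimum, 1 was 2-fold higher (5.88%) and 0 lower, beside 3.95% and 15.8% of all genes. The list median of 0.48 became -0.09 with each array's highest background control as its floor. With the unsorted background level as the floor of both arrays the list median was 0. Il1b, another cytokine of activated macrophages, was lower at 974 against 1789. The NF-kappaB inhibitor gene Nfkbia had 9378 against 6317, and Ptgs2, a prostaglandin synthase gene, had 641 against 423.

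Some proteases and their inhibitors, which remodel matrix, were higher on the feeder array. Of 21 members above the minimum, 6 were at least 2-fold higher (4 counted from the background level) and 1 was lower. Among all genes 3.95% were higher (2.12% counted from the background level) and 15.8% lower. The median of the list was 0.54, and it stayed above 0 under each scaling. Timp3, a matrix-bound metalloproteinase inhibitor gene, had 2129 against 443, 4.80-fold, and all 4 of its probe sets were higher on the feeder array, by 0.51 to 2.26 on the log2 scale. Prss23, a serine protease gene, had 1067 against 166, at least 6.27-fold, with 27.2 to 341 on the sorted arrays. Plau, which encodes urokinase, had 4512 against 1793, 2.52-fold, and both of its probe sets agreed. Timp1 had 4384 against 2153. The gelatinase gene Mmp2 (4064 and 4228) was nearly equal. Mmp12, the macrophage elastase gene, had 6747 against 3992, above the sorted arrays' 139 to 1191. Ctsk, a cathepsin gene, was the lower member (120.4 against 344).

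Factors that act on endothelium or on blood cells differed in a few members only. Of 20 angiogenic ligand genes above the minimum, 2 were at least 2-fold higher and 2 lower (1 and 1 counted from the background level). Among all genes 3.95% were higher and 15.8% lower (2.12% and 12.1% counted from that level). The list median of 0.14 became -0.12 after scaling to the added control transcripts. Hbegf, a ligand of the epidermal growth factor receptor, had 594 against 188, 3.16-fold, with both probe sets higher, and Edn1, the endothelin gene, had 223 against 73.6, which is under the unsorted background level and leaves at least 1.31-fold. The lower members were the fibroblast growth factor genes Fgf1 and Fgf10. Fgf1 had 59.6 against 182, at least 2.85-fold lower, and Fgf10 had 57.2 against 146, both under the background level of their array. Vegfa, the main endothelial growth factor gene, was close to equal at 642 and 579. Of 9 stromal support factor genes, 3 were at least 2-fold higher (33.3%) and 1 was lower (11.1%), beside 3.95% and 15.8% of all genes. Counted from the background level these were 2 and 0. Csf1, the macrophage growth factor gene, had 1902 against 818, Tnc, which encodes the matrix protein tenascin C, had 1675 against 698, and the cytokine gene Il6 had 275 against 73.4, at least 1.62-fold. Csf1 has 4 probe sets, of which 2 were over 2-fold higher and 2 differed by 0.00 and 0.10. Cxcl12, which holds blood progenitors in their niche, had 3805 against 2564, and the stem cell factor gene Kitl had 497 against 590.

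Members of the TGF-beta and IGF families were mostly alike on the arrays. Of 24 TGF-beta and BMP genes above the minimum, 3 were at least 2-fold higher (2 counted from the background level) and 2 lower. These were 12.5% and 8.33%, beside 3.95% and 15.8% of all genes. The median was 0.19 (-0.04 after scaling to the added control transcripts) and the lowest difference -1.43, and counted from the background level 2 were still lower. The higher ones were the latent TGF-beta binding protein genes Ltbp2 (1767 against 658) and Ltbp1 (289 against 125, at least 1.70-fold) and the activin subunit gene Inhba (398 against 167, at least 2.34-fold). Tgfb1 itself had 3438 against 4083. Of 11 IGF system genes, 0 were 2-fold higher and 2 lower (18.2%, beside 15.8% of all genes), also when counted from the background level. The lowest difference of the list was -2.02 and its median 0.06. The ligand genes Igf1 (6535 and 6239) and Igf2 (3651 and 3524) were nearly equal.

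Macrophage genes were bright and alike. Of 25 macrophage and Kupffer cell genes measured, 22 passed the signal minimum, each was above the background level on both arrays, and 0 were 2-fold different in either direction. Their median difference was 0.01, with extremes of -0.60 and 0.64, and it ranged from -0.23 to 0.37 over the scalings. Their summed signal was 144141 on the feeder array and 141155 on the unsorted array, below the 179364 to 280310 of the sorted arrays. The sorted arrays also differ from both in the 3' to 5' ratios given above. Csf1r, the receptor of Csf1, had 10050 and 12945. Lyz2, the macrophage lysozyme gene, had 14698 and 14454, and Adgre1, which encodes the F4/80 antigen, had 4914 and 4122. The array labelled as feeder layer thus held macrophage transcripts at the level of the progenitor array, beside its contractile and collagen genes.

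Granulocyte genes made the largest shift between the arrays and were lower on the feeder array. Of 26 measured, 24 passed the signal minimum. Of those, 22 were at least 2-fold lower (91.7%) and 0 higher, beside 15.8% and 3.95% of all genes. The median was -3.20 beside -0.14 over all genes. Counted from the background level 22 were lower, beside 12.1% of all genes. With the unsorted background level of 170 as the floor of both arrays, 17 were lower and the median was -2.15. The median was between -3.44 and -2.92 over the scalings. Of the 33 genes at least 4-fold lower whose higher signal exceeded 500, 15 belong to this list.

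Ltf, which encodes lactoferrin of secondary granules, had 325 on the feeder array, 6063 on the unsorted array and 430.4 to 72792, with a median of 17511, on the sorted arrays. It was 18.7-fold lower on the feeder array than on the unsorted array. The calprotectin genes S100a8 (983 against 14660) and S100a9 (1247 against 15711) were 14.9-fold and 12.6-fold lower but still bright. Other granule genes were Ngp (957 against 11914), the cathelicidin gene Camp (213 against 3120), the lipocalin gene Lcn2 (466 against 6651) and the collagenase gene Mmp8 (270.3 against 2542). Stfa3, a cysteine protease inhibitor gene of neutrophils, had 118 against 2475. The peptidoglycan-binding protein gene Pglyrp1 had 88.4 against 1500, and Wfdc21 had 81.2 against 980.1. Asprv1 (at least 22.7-fold lower) and Chil3 (at least 11.9-fold lower) were under the floor on the feeder array. Mpo, the enzyme of primary granules made early in the lineage, had 88.6 against 751.

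Not every gene of the list differed. Mmp9 (3280 and 3940) and Anxa1 (6878 and 6631), which other myeloid and stromal cells also express, were near equal, and the granulocyte growth factor receptor gene Csf3r (977 against 2042) was 2.09-fold lower. The feeder signal was below all 6 other arrays for 17 of the 24 members, beside 11.2% of all genes. Among the sorted arrays the list varied widely, from a median signal of 174 on Sca1+ replicate 2 to 20600 on Sca1- replicate 1, with 88.5 on the feeder and 1217 on the unsorted array. On Sca1+ replicate 2 Ltf read 430, Lcn2 274 and Camp 296, which are close to the feeder values. Other members were further from them, with S100a8 at 3219 there against 983 on the feeder array and Hp at 432 against 77.0. The unsorted array therefore lay inside the range of the sorted arrays for this list, and the feeder array lay just outside it at the low end.

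**Figure D4:**
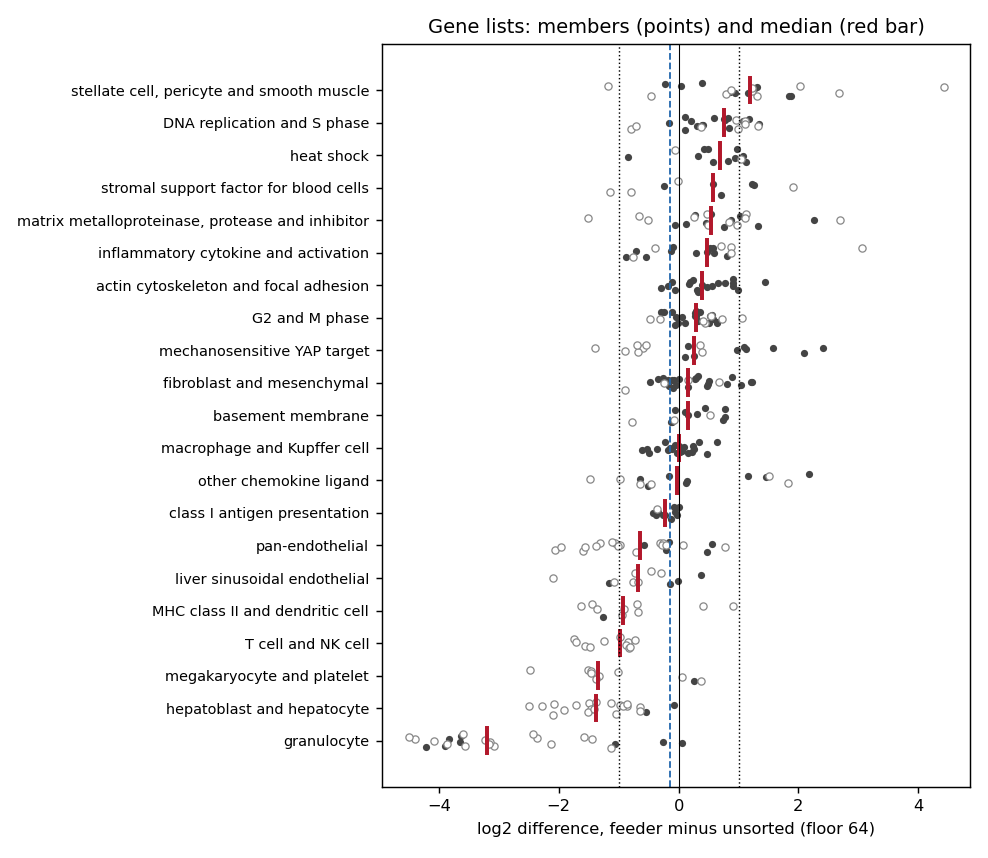
Log2 differences (feeder minus unsorted, horizontal axis) of the members of 21 gene lists; filled points have both signals above 300, open points do not, red bars are list medians, the dashed line is the median of all genes (-0.14) and dotted lines mark 2-fold. The stellate and smooth muscle list has the highest median (1.19), the granulocyte list the lowest (-3.20), and the lists between -0.64 and -1.37 consist mostly of open points.

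Lists of other blood cells had lower members on the feeder array, mostly at dim signals. Over all genes, 43.4% and 46.4% were at least 2-fold lower in the first and second dimmest bins of mean signal, near the shares of the smaller lists here. Of 10 megakaryocyte and platelet genes above the minimum, 7 were at least 2-fold lower, with a median of -1.35. Clec1b, a platelet receptor gene, had 72.8 against 406, and Gp5, of the von Willebrand factor receptor complex, had 118 against 326. Among 10 MHC class II and dendritic cell genes, 4 were lower, with a median of -0.93. Cd74, the class II invariant chain gene, had 161 against 415, and the bright member Cd83 had 1033 against 2471. Of 11 T and NK cell genes, 5 were lower (median -0.98), and of 7 erythroid genes 2; counted from the background level these were 4 and 1. Of 8 B cell genes 3 were lower, among them Cd79a, of the antigen receptor, at 91.6 against 455. The brightest B cell member, Cd72, had the higher signal on the feeder array (2532 against 1361), as had Blnk (489.8 against 296) and Cd22 (342 against 295), and the summed signal of the list was 4084 on the feeder and 3575 on the unsorted array. With the unsorted background level as the floor of both arrays, the medians became -0.56 for the megakaryocyte list and 0.00 for the T and NK cell list. All 11 T and NK cell genes passed the signal minimum on the unsorted array and 2 passed it on the feeder array. For the B cell list these counts were 8 and 4. Without the minimum the medians were -0.85 for the T and NK cell list and 0.00 for the B cell list.

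Most endothelial genes were dim on both arrays, including the one labelled endothelial progenitor; the bright exception was Cd93 (4329 against 4996), which myeloid cells also express. Of 28 pan-endothelial genes measured, 20 exceeded the background level on the feeder array and 16 on the unsorted array, and 22 passed the signal minimum. All 22 passed it on the unsorted array and 13 passed it on the feeder array. Of the 22, 9 (40.9%) were at least 2-fold lower on the feeder side and 0 higher, with a median of -0.64. Without the signal minimum the median was -0.36. Counted from the background level 8 were lower. Among all genes 15.8% were lower (12.1% counted from the background level), and in the first and second dimmest bins of mean signal 43.4% and 46.4%. With the unsorted background level as the floor of both arrays 1 pan-endothelial gene was lower and the median of the list was -0.21. Pecam1, the gene of the endothelial and leukocyte antigen CD31, had 124 and 117, the latter under the background level. Cdh5, the endothelial cadherin gene, had 101 against 210.1, and Kdr, the receptor of VEGF-A, had 255 against 418. Robo4 had 55.6 against 267, and Nos3, the endothelial nitric oxide synthase gene, 84.6 against 330.3. These were the largest differences of the list, and both feeder signals are near the floor. Eng, a TGF-beta co-receptor gene that stroma and macrophages also express, was higher at 741 against 502. Tek (3.60 and 15.0) and Tie1 (5.40 and 36.6), receptor genes that define endothelium, were below background on both arrays.

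Sinusoidal endothelial genes gave a like picture, with 3 of 11 at least 2-fold lower (27.3%, beside 15.8% of all genes) and a median of -0.67. Fcgr2b, an Fc receptor gene of sinusoidal endothelium and of macrophages, was the bright one among them, at 1110 against 2482. The scavenger receptor gene Stab2 had 157 against 331. With the common floor 1 of 11 was lower and the median was -0.01. All 11 passed the signal minimum on the unsorted array and 7 passed it on the feeder array, and without it the median was -0.44.

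Liver parenchymal genes had a median of -1.37, with 13 of 21 (61.9%) lower by 2-fold or more on the feeder array and 11 counted from the background level. The shares of all genes were 15.8% and 12.1%, and in the first and second dimmest bins of mean signal 43.4% and 46.4% were 2-fold lower. All 21 passed the signal minimum on the unsorted array and 5 passed it on the feeder array. Without that minimum the median was -0.96. On the unsorted array 14 of 28 measured members exceeded the background level, and on the feeder array 8 did. Alb, the albumin gene, had 102 against 288, F2, the prothrombin gene, 62.2 against 359.7, and Hnf4a, the hepatocyte transcription factor gene, 59.6 against 312. All of these are dim, and with the unsorted background level as the floor of both arrays 2 members were lower and the median was -0.51. The bright members differed less: Dlk1, which marks hepatoblasts and fetal stroma, had 1728 against 2510, and Cebpa, shared with myeloid cells, 2938 against 3091. The part of the background offset between the arrays in these low lists was not tested.

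Some genes of DNA replication were higher on the feeder array. Of 23 S phase genes above the minimum, 6 were at least 2-fold higher (5 counted from the background level) and 0 lower. Among all genes 3.95% were higher (2.12% counted from the background level) and 15.8% lower. The S phase median of 0.75 stayed between 0.51 and 1.11 over the scalings. Rrm2, a ribonucleotide reductase subunit gene, had 1830 against 722, with 788 to 3335 on the sorted arrays. Mcm7, of the replicative helicase, had 2026 against 964, and Fen1, a flap endonuclease gene, 831 against 366. Pcna, the sliding clamp gene, had 10866 against 6159. For Rrm2, Mcm7 and Fen1 the feeder signal did not exceed the highest sorted array and the unsorted array was the lowest of the 7. G2 and M phase genes shifted less, with a median of 0.30 and 1 of 27 over 2-fold, Plk1 (446 against 214). Of 13 G1 cyclin and CDK inhibitor genes above the minimum, 2 were at least 2-fold higher (15.4%) and 0 lower, and 5 had differences below 0. The higher ones were the cyclin genes Ccnd1 (3254 against 1508) and Ccnd2 (2475 against 1110). The list median of 0.23 became -0.005 after scaling to the added control transcripts.

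Few stress and immediate early genes differed 2-fold. Of 12 heat shock genes, 3 were at least 2-fold higher (2 counted from the background level) and 0 lower, with a median of 0.70. The shares of all genes were 3.95% higher and 15.8% lower. The bright chaperone genes Hspb1 (3210 against 1678) and Hspd1 (5370 against 2740) came near 2-fold. Of 27 immediate early genes 3 were 2-fold higher (11.1%, median 0.36) and 0 lower. Counted from the background level 1 was higher, the transcription factor gene Myc (765 against 285), beside 2.12% of all genes. The unsorted signals of Maff (334 against 25.2) and Fosl1 (173 against 68.4) lie under that level, which leaves at least 1.96-fold for Maff and at least 1.02-fold for Fosl1. Fos (12882 and 12562) and Egr1 (9163 and 7937), early-response transcription factor genes, were near equal. Glycolysis genes had a median of 0.42, with 1 of 20 over 2-fold, and 0 of 13 ribosomal protein genes differed 2-fold (median 0.14, and -0.09 to 0.50 over the scalings). For scale, the added control transcripts had a median of 0.24.

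**Figure D5:**
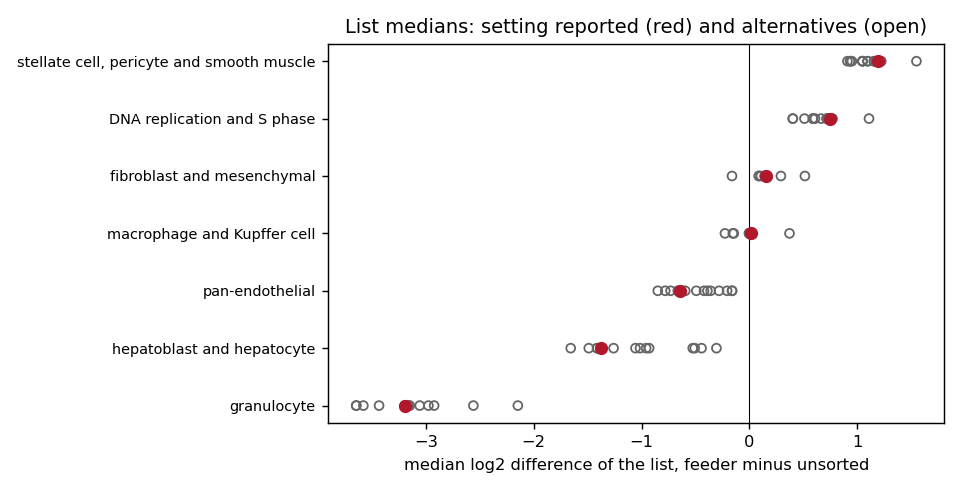
Median log2 difference of 7 gene lists (feeder minus unsorted, horizontal axis) as reported (red) and under 15 other settings of scaling, floor, filter and probe set (open circles). The granulocyte median stays between -3.65 and -2.15 and the stellate median between 0.91 and 1.55, while the macrophage and fibroblast medians lie on both sides of 0.

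Set among all 7 arrays, few genes put either array 4-fold apart from every other. By signal, the feeder array stood at least 4-fold above all others for 3 genes, Cnn1, Cxcl1 and Tm4sf1. The unsorted Tm4sf1 signal of 92.6 lies under the background level of 170. Counted from that level the feeder signal was at least 3.95-fold higher, so Tm4sf1 was not shown to be 4-fold above all others. The feeder array stood at least 4-fold below all others for 4 genes. Those 4 were Hp, the haptoglobin gene of granulocytes and hepatocytes (77.0 against 687), and, named after their values were seen, the formyl peptide receptor gene Fpr2 (352 against 2277), the lymphocyte GTPase gene Gimap4 (74.4 against 376) and the lymphotoxin gene Ltb (35.8 against 415). The unsorted array stood 4-fold above all others for 1 gene and below all others for 1. The first was Dmbt1, a mucosal and biliary scavenger receptor gene, with 976 on the unsorted array, 68.2 on the feeder array and 2.40 to 64.8 on the sorted arrays. The second, also named after its values were seen, was Mthfd1, a folate enzyme gene, with 74.98 on the unsorted array, 436 on the feeder array and 362 to 698 on the sorted arrays. These are values of 1 of its 3 probe sets. The unsorted Mthfd1 signal lies under the background level of 170, and counted from that level it was not 4-fold below all others. Dmbt1, which ranks among the 12 lowest differences, thus reflects a single value of the unsorted array. Across the 9813 genes, which are not independent replicates and share array effects, Pearson's r of log2 signals was 0.905 between the feeder and the unsorted array. It was 0.941 between the feeder array and Sca1+ replicate 2, and 0.687 to 0.900 with the other sorted arrays.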

How the data were processed

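Total RNA of 7 mouse fetal liver samples was hybridised to short-oligonucleotide arrays, 1 sample an array. Intensities were deposited by the authors as linear signals, with a 2% trimmed mean near 250 on every array. Per the submitters' processing notes, GCOS produced those of Sca1+ replicate 2 and Sca1- replicates 2 and 3. For the feeder and the unsorted array the software, and any further filter or normalization, are not given in the sources. The feeder array is in a table of its own, under another platform than the 6 other arrays, and the 2 tables were joined on probe set names.

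Sample titles gave the groups. Both compared arrays were brought to a 2% trimmed mean of 500, signals below 64 were raised to that floor, and log2 differences were formed. Of 22690 probe sets, 64 are controls, and the 20380 annotated to a single gene were kept, leaving out 691 with several genes and 1555 with none. Each gene was read by its probe set brightest on average (log2) over the 2 compared arrays, since a choice over the larger table alone would favour probe sets bright on the unsorted array. The 12 highest and 12 lowest differences among genes with a signal above 500 were named, with the 4 given markers and members of 45 gene lists (793 of 875 genes measured). Members, lists and rules were chosen with earlier results of these data known. Promoters were taken from RefSeq on GRCm38.p6.

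Alternatives were 3 other scalings, a lower floor of 16 and a higher one of 128, each array's highest background control as its floor, a pseudocount of 32, no filter, minimums of 300 on 1 or on both arrays, and 3 other rules for probe sets. Scaling to the bio and cre control probe sets, and the higher of the arrays' background levels as the floor of both, were added after seeing the data. With 1 array a side there are no p-values, and the number of arrays limits the precision. The counting of 2-fold differences was checked on a simulated pair of arrays with bright changed probe sets and no background offset. The choice of probe sets, the gene lists and the background bounds were not covered by that check. Python 3.11.15, pandas 2.3.3, numpy 2.4.6 and matplotlib 3.10.9 were used.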

Additional observations from a re-analysis of the deposited data

How the results depend on the processing

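Counts of genes past 2-fold depended on the setting. Beside 388 higher and 1551 lower, they were 662 and 868 after quantile normalization, 930 and 962 after scaling to the median, 787 and 391 after the lowess fit, 256 and 618 with the higher floor, 229 and 446 with a signal above 300 on 1 array and 114 and 72 with it on both, which tests fewer genes. Each array's highest background control as its floor gave 208 higher, and every probe set counted gave 751 higher. Of the settings added after seeing the data, scaling to the bio and cre controls gave 221 higher, and the higher background control as the floor of both arrays gave 209 and 356. The granulocyte median moved from -3.20 to -2.56 with the higher floor and to -2.15 with the common floor, which raise low feeder signals by construction. The megakaryocyte median of -1.35 reversed to 0.26 with both signals above 300, where 1 member was left, Plek.

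Of 41 list medians, 17 kept their sign under each of 15 alternatives run, and the other 24 did not; of those, the megakaryocyte median was past 2-fold as reported and reversed. The differences of all 24 genes named by rule kept their sign in each of 264 pairs of gene and alternative, and 23 of these pairs moved. Des ranged from 1.73, as the mean of its probe sets, to 4.78. No paired analysis was possible because each side has 1 array. Low signals limit most of the lower calls: signals under 64 made up 30.2% of probe sets on the feeder and 21.2% on the unsorted array.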

Other observations

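Imprinted genes of fetal growth, which are active in fetal tissues and mostly silent in adult ones, were bright on both arrays. Of 11 above the signal minimum, 1 was higher on the feeder array by 2-fold or more and 0 were lower, beside 3.95% and 15.8% of all genes. The median of 0.21 became -0.03 after scaling to the bio and cre controls. The higher one was Grb10, an adaptor of insulin and IGF receptors, at 6305 against 3144, although its probe sets did not all lie on 1 side of 0. Meg3, a long noncoding RNA, had 3868 against 2556, and Peg3, a zinc finger gene, had 1978 against 1554. For 7 of the 11 genes the feeder array had the highest signal of the 7 arrays, beside 17.1% of all genes.

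Interferon-stimulated genes had a lower median signal on both arrays than on any of the 5 sorted ones. The sorted arrays also had higher 3' to 5' ratios of Actb (1.87 to 13.5, against 1.03 and 1.01). A part of RNA quality in this contrast was not tested. Of 22 above the minimum, 2 (9.09%) were at least 2-fold lower on the feeder than on the unsorted array and 0 higher. This share of lower genes was below the 15.8% of all genes, of which 3.95% were higher. The list median of -0.20 became 0.16 with median scaling. The GTPase gene Iigp1 had 382 against 937, and the antiviral gene Mx1 had 192 against 455. The feeder signal was below all 6 other arrays for 12 of the 22, beside 11.2% of all genes, and the median signal of the list was 727 on the feeder, 846 on the unsorted and 1547 to 2582 on the sorted arrays. Class I antigen presentation genes showed a narrower shift, with all 11 differences at or below 0, a median of -0.23 and 0 past 2-fold; median scaling turned it to 0.12.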
